A study of Mus musculus with 12 samples.

Results

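The genes described are the Vps4 ATPases and the ESCRT-III subunits that Vps4 acts on, measured in the nucleus accumbens of adult mice after prenatal immune activation. The set has 10 genes (Vps4a, Vps4b, Chmp1a, Chmp2a, Chmp2b, Chmp3, Chmp4b, Chmp5, Chmp6 and Chmp7) of 18820 named genes on the array. A member is represented by the row of the deposited table (1 value per array) whose annotation gives that gene symbol alone, and by the row with the highest mean over the 12 arrays where there are several. All 10 genes had such a row, and Vps4b, Chmp1a and Chmp3 had 2 rows each. Which of the 2 rows lies at the gene's own place in the genome could not be settled for these genes. Correlations with Vps4b use its brighter row unless the other row is named. Vps4b was known to be lower in poly(I:C) offspring when the set was assembled, so its difference is given as a description with no test, and the questions asked are whether its 9 partners differed as well and whether they varied with it.

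The samples were 12 arrays of adult C57BL/6N mice, 6 from control offspring and 6 from poly(I:C) offspring, all dissected at 12 weeks of age after behavioural testing. Poly(I:C) is a synthetic RNA duplex that the immune system reads as a virus. The pregnant dams were injected into a vein on gestation day 17, with saline for the control group and with poly(I:C) at 5 mg/kg for the other. The dissected piece held core and shell of the accumbens together, so each value is an average over all cell types in it, and fewer cells of a type cannot be told apart from less RNA per cell. The labels name no litter, sex or array strip, so litter mates, if any were used, were treated as independent, and p-values measure only the spread between these samples.

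ESCRT-III proteins are small subunits that assemble into filaments on membranes and pinch the membrane off away from the cytoplasm. They act when receptors are sorted into the inner vesicles of late endosomes on the way to the lysosome, in the last step of cell division, and in repair of the nuclear envelope and the plasma membrane. Vps4 is the ATPase that pulls the filaments apart and recycles the subunits, and mice and humans have a pair of paralogs, Vps4a and Vps4b. In neurons the pathway is known for turning over synaptic and growth factor receptors, and mutations of the human CHMP2B gene cause a form of frontotemporal dementia.

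The promoters of the Vps4 paralogs and of Chmp2b are shown because Vps4b and Chmp2b were the members whose groups did not overlap, whereas Vps4a stood on the other side of 0 from Vps4b. Each line gives the 250 bases before the annotated start, 5′ to 3′ on the strand of the gene, from RefSeq on GRCm38.p6, with matches to the GC box (GGGCGG, either strand) in capitals. The windows are chr1:106796726-106796975 on the minus strand, chr8:107031019-107031268 on the plus strand and chr16:65562763-65563012 on the minus strand.
Vps4b: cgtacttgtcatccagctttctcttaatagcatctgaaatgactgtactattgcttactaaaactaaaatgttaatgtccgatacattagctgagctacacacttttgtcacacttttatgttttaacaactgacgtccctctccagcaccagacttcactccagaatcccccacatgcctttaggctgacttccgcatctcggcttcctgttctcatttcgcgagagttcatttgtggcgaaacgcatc
Vps4a: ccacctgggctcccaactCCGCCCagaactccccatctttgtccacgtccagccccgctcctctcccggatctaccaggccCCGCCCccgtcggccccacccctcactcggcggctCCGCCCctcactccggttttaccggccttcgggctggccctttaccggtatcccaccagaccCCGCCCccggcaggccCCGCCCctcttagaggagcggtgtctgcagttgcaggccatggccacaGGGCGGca
Chmp2b: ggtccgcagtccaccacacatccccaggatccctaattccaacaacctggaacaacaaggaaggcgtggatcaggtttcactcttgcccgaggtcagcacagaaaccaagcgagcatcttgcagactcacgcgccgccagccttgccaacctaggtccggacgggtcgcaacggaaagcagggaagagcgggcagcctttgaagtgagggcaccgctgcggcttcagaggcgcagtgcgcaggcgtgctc
The paralogs have unlike promoters. The Vps4b window was 43.2% G and C with 9 CpG dinucleotides and no GC box, and the Vps4a window was 70.8% G and C with 19 CpG dinucleotides and 6 GC boxes. The Chmp2b window was 61.2% G and C with 17 CpG dinucleotides and no GC box. Over 32851 promoter windows of the same length the median was 52.4% G and C and 6 CpG dinucleotides, and 32.7% held a GC box. The E-box CACGTG, the core of the element bound by the lysosomal regulator TFEB, was searched on both strands and was in none of the 9 windows listed for 8 of the members, against 6.02% of all windows. These matches describe the letters only, and no binding was measured.

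Vps4b was lower in poly(I:C) offspring. The log2 values were 7.77, 7.84, 7.88, 7.80, 7.88 and 7.82 in controls 1 to 6 and 7.76, 7.61, 7.40, 7.46, 7.47 and 7.57 in poly(I:C) animals 1 to 6. All 6 poly(I:C) values lay below the lowest control value, poly(I:C) 1 by a narrow margin, and the poly(I:C) animals were more spread out than the controls. The means were 7.83 ± 0.043 and 7.54 ± 0.13 (SD over 6 arrays each), which is -0.29 on the log2 scale or a change of -18.0%. Groups that do not overlap were found in 1.13% of the 21218 rows tested, but this difference was a reason for choosing the gene and nothing is read from it. Without poly(I:C) 1 the difference was -0.33.

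The size of the Vps4b difference depended on the row. The less bright row of the gene, annotated with the same transcripts, read 7.58 ± 0.051 in the control group and 7.44 ± 0.11 in the exposed group (SD, n = 6), which differ by -0.14. On that row 5 of 6 poly(I:C) animals were below the lowest control at 7.51, and poly(I:C) 1 at 7.66 was above the highest control at 7.63, so the groups overlapped. Among arrays of one group the 2 rows correlated with r = 0.66 (Spearman rho = 0.18, n = 12 arrays centred on their group means, permutation p = 0.0798 and 0.611), and without poly(I:C) 1 and poly(I:C) 3, the arrays farthest from the median, r was 0.08. The rows therefore shared the high value of poly(I:C) 1 and the direction of the group difference, and little of the remaining variation.

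**Figure D1:**
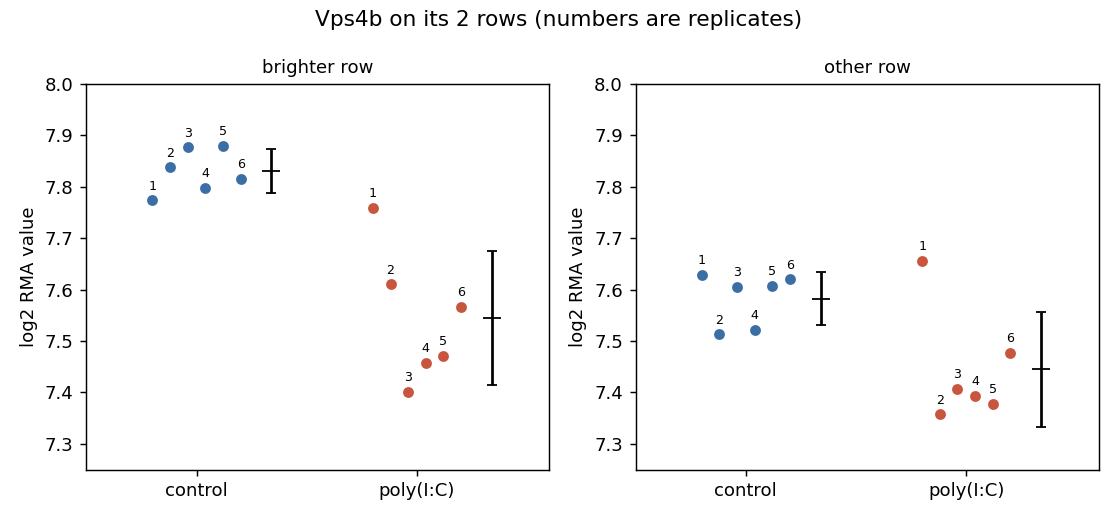
The panels plot the log2 RMA value of Vps4b on its brighter row (left) and its other row (right) for 6 control arrays (blue) and 6 poly(I:C) arrays (red), with replicate numbers and with black bars for mean ± SD. On the brighter row all poly(I:C) arrays are below all controls, and on the other row poly(I:C) 1 at 7.66 is above the highest control at 7.63.

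Vps4a, the paralog of Vps4b with the same activity, was not lower. Its log2 values were 7.79, 8.16, 8.08, 7.70, 8.02 and 8.07 in controls 1 to 6 and 8.12, 8.21, 8.21, 8.13, 8.18 and 8.02 in poly(I:C) animals 1 to 6. Controls 1 and 4 were the low arrays, 3 poly(I:C) animals were above the highest control, and the groups overlapped. The means were 7.97 ± 0.18 and 8.15 ± 0.075 (SD, n = 6), a log2 difference of 0.18 (95% interval 0.020 to 0.33). It did not pass the test over all 21218 rows (limma adjusted p = 0.296, threshold 0.05), and neither did any other partner. Of the 9 partners 0 passed, where 0.0613% of all rows did (0.033% lower and 0.0283% higher). An unadjusted p under 0.05 was reached by 3 partners (Vps4a, Chmp2b and Chmp6), where 14.4% of all rows reached it, and by 2 in the lower direction, where 6.57% did. Across the partners 5 were lower and 4 higher in value, where 49.1% of all rows were lower, with a median difference of -0.022 against 0.0016 over all rows.

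Chmp2b, a late subunit of the filament whose tail binds Vps4, was the partner with the smallest p. Controls 1 to 6 read 7.88, 7.84, 7.92, 7.88, 7.81 and 7.82 on the log2 scale, and poly(I:C) animals 1 to 6 read 7.80, 7.71, 7.81, 7.76, 7.68 and 7.73. All poly(I:C) values were below all control values, which was the case for 1 of the 9 partners and in this direction for 0.523% of all rows. The step between the groups was small, from 7.81 in the highest poly(I:C) animal to 7.81 in the lowest control before rounding (7.806 and 7.814). The means were 7.86 ± 0.041 and 7.75 ± 0.051 (SD, n = 6), a log2 difference of -0.11 (95% interval -0.19 to -0.040) or -7.54%, and the limma adjusted p was 0.171. Within groups Chmp2b had r = 0.60 with the cortical and -0.57 with the oligodendrocyte list mean described below, and their part in the difference was not tested. An exact permutation test of this row alone gave a two-sided p of 0.00216, the smallest that 6 against 6 arrays allow, before any adjustment for the rows tested. Any row whose groups do not overlap gives this value, so it adds nothing to the separation stated above.

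Chmp6, which joins ESCRT-II to the growing filament, read 6.13, 6.25, 6.26, 6.18, 6.10 and 6.37 in controls 1 to 6 and 5.98, 6.05, 6.18, 6.16, 6.01 and 5.95 in poly(I:C) animals 1 to 6. Here 4 of 6 poly(I:C) animals were below the lowest control, and all 6 were below the control median of 6.21. The difference was -0.16 (95% interval -0.27 to -0.042), from 6.21 ± 0.097 to 6.06 ± 0.096 (SD, n = 6), with a limma adjusted p of 0.215. With the oligodendrocyte list mean as a covariate the differences were -0.075 for Chmp6, -0.18 for Chmp2b and 0.35 for Vps4a, and none passed. The oligodendrocyte means of the groups did not overlap, so that fit extrapolates. With the cortical, choroid plexus and septal list means in the fit they were -0.17, -0.14 and 0.12 in that order, and none passed. The Vps4a difference ran from 0.12 (without control 4) to 0.22 (without control 2) with 1 array left out.

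The remaining subunits had differences whose 95% intervals included 0. Chmp4b, the main filament-forming subunit, ran from 9.11 to 9.30 in controls (median 9.24) and from 9.08 to 9.22 in the exposed animals (median 9.19), all 6 below the control median, and the difference was -0.060 (95% interval -0.15 to 0.026), or -0.12 with the oligodendrocyte list mean or the other tissue list means as covariates. Chmp5, a regulator that binds the Vps4 activator Vta1, ran from 8.53 to 8.75 and from 8.49 to 8.63, a difference of -0.075. Chmp2a, which caps filaments and recruits Vps4 like Chmp2b, ran from 8.13 to 8.29 and from 8.14 to 8.23, a difference of -0.022 (95% interval -0.095 to 0.051) that was -0.040 without control 3, -0.0076 without control 4, -0.013 without poly(I:C) 5 and -0.012 without poly(I:C) 6. The poly(I:C) values of Chmp2a thus lay inside the control range, and Chmp2a and Chmp2b were not tested against each other.

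Chmp3, the partner of Chmp2a in the filament cap, ran from 6.69 to 6.88 in controls and from 6.74 to 6.85 in exposed animals, a difference of 0.0069 (95% interval -0.074 to 0.088). Chmp7, which brings ESCRT-III to the nuclear envelope, ran from 6.93 to 7.30 and from 7.13 to 7.36, a difference of 0.064 that was 0.014 without control 4, the lowest array. Chmp1a, a regulatory subunit that binds Vps4, ran from 6.62 to 6.83 and from 6.71 to 6.87, a difference of 0.087 (95% interval -0.0068 to 0.18). The other rows of Chmp1a and Chmp3 gave 0.048 and -0.047. The limma adjusted p of these 6 subunits (Chmp1a, Chmp2a, Chmp3, Chmp4b, Chmp5 and Chmp7) ran from 0.385 to 0.959.

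**Figure D2:**
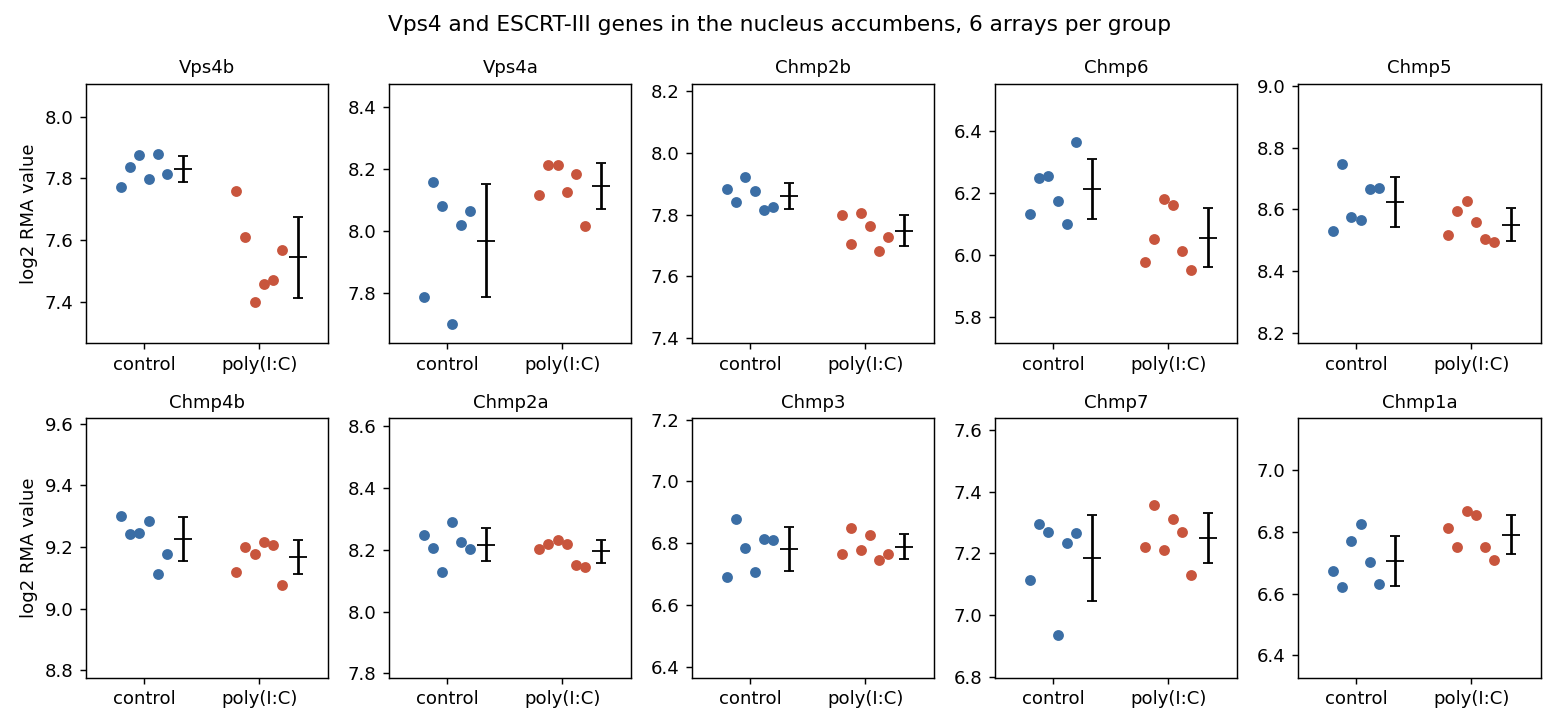
The panels plot the log2 RMA value of each of the 10 members (axis span equal in all panels) for 6 control arrays (blue) and 6 poly(I:C) arrays (red), with black bars for mean ± SD. Groups are apart for Vps4b and Chmp2b and overlap for the other 8 genes.

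Whether the partners moved with Vps4b was asked among arrays of the same group, after each value had been centred on its group mean, so that the group difference of Vps4b did not enter. No partner passed, in a fit with little power to call any row. A fit of each row on exposure group and Vps4b level gave 0 of 9 partners past the adjusted threshold (limma adjusted p from 0.998 to 1.00) and 0 with an unadjusted p under 0.05, or 1 with quantile normalization again. The other row of Vps4b itself, at r = 0.66, had an adjusted p of 0.998 in this limma fit, so the count of 0 says little about single partners. The same fit called 0 of 21217 rows, 0% of them, and 4.68% had an unadjusted p under 0.05 (2.51% with a positive slope). Of the 9 correlations with Vps4b 4 were above 0, against 47.2% of all rows, and the largest in size were negative.

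Chmp4b had r = -0.47 with Vps4b (Spearman rho = -0.47, permutation p = 0.0970 and 0.101, n = 12 arrays), and r was -0.53 without poly(I:C) 1 and poly(I:C) 3. Chmp6 had r = -0.47 (rho = -0.41, permutation p = 0.145 and 0.185) and -0.22 without those arrays. The permutations reassigned arrays within each group in all 518400 ways. Chmp2b, the partner whose groups did not overlap, had r = 0.045 within groups (rho = -0.11, permutation p = 0.915 and 0.748). Its slope, the log2 change per log2 unit of Vps4b, was 0.021 (95% interval -0.41 to 0.45). Vps4a had r = 0.087 (rho = 0.18, permutation p = 0.692 and 0.482), made of 0.69 among controls and -0.31 among exposed animals, and its slope of 0.13 had a 95% interval from -0.80 to 1.05. These intervals are wide and do not show that the partners were independent of Vps4b.

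**Figure D3:**
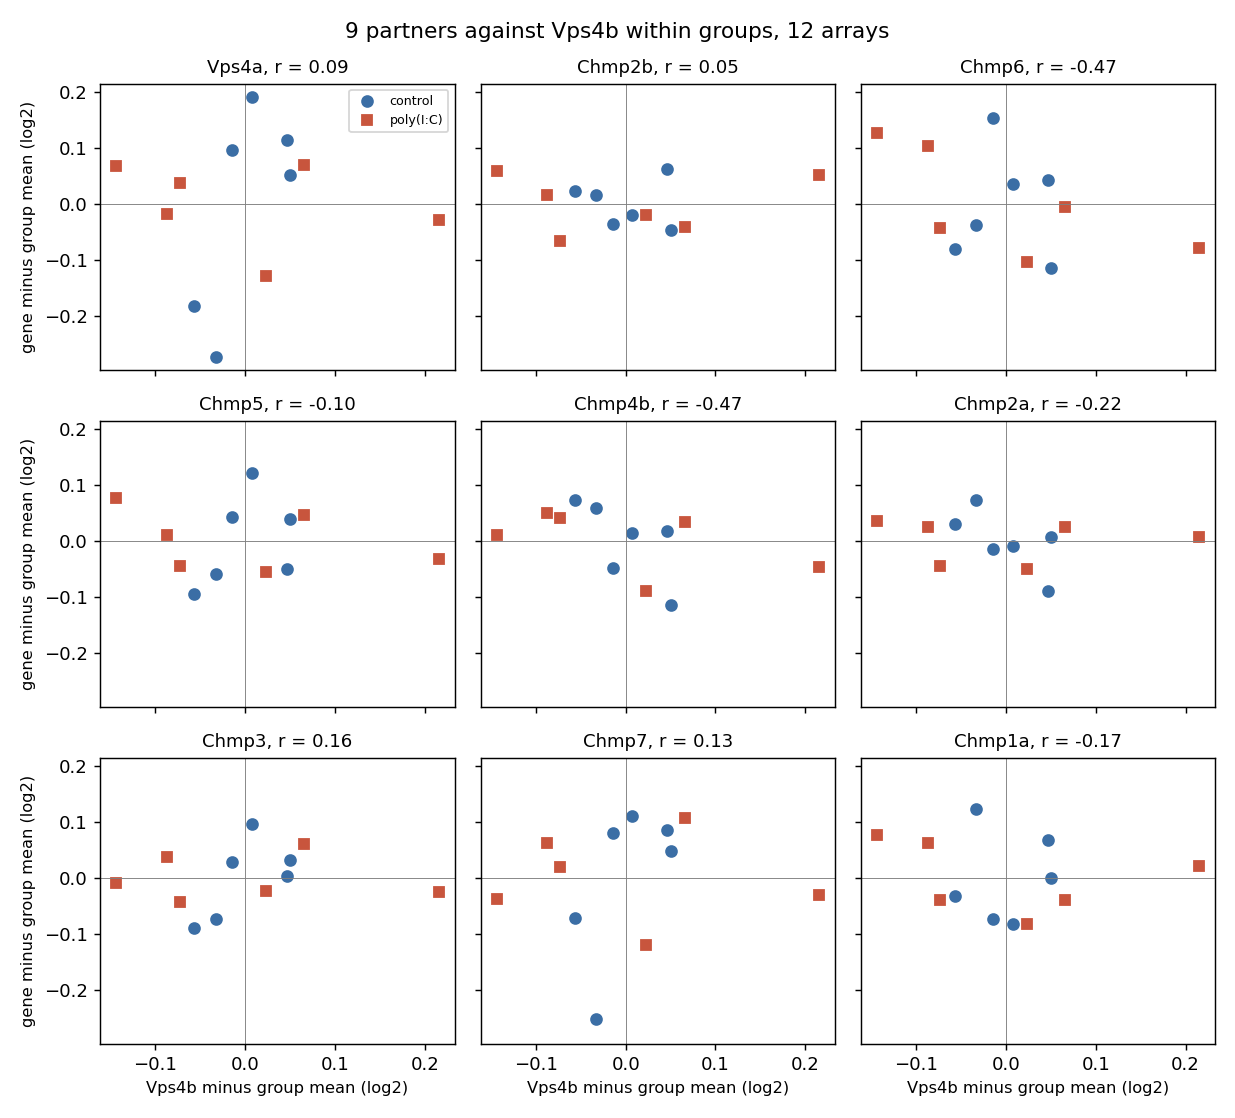
Each panel plots 1 partner against Vps4b, both as log2 values minus the mean of their own group, for 6 control (blue circles) and 6 poly(I:C) (red squares) arrays. The r printed above each panel is over the 12 arrays and lies between -0.47 and 0.16, and poly(I:C) 1 is the point farthest to the right.

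Over the 12 arrays some partners varied with each other more than with Vps4b. Of the 45 pairs of members 5 had an r above 0.7 within groups, all 5 among Vps4a, Chmp7, Chmp3 and Chmp5. Vps4a and Chmp7 had r = 0.90, Chmp3 and Chmp5 0.85, Vps4a and Chmp3 0.80, Chmp3 and Chmp7 0.79, and Vps4a and Chmp5 0.74. These pairs were picked from all 45 for their size and are a description with no test. Such values were not rare for Vps4a, since 6.92% of all rows had an r above 0.7 with it and 49.6% an r above 0. Controls 1 and 4 were the lowest controls for Vps4a, Chmp7, Chmp3 and Chmp5. Without those controls r was 0.68 between Vps4a and Chmp7, 0.44 between Vps4a and Chmp3 and 0.62 between Vps4a and Chmp5. Between Vps4a and Chmp4b it went from -0.21 to 0.79. Within groups the mean of 5 astrocyte genes had r = 0.82 with Vps4a, 0.87 with Chmp7, 0.71 with Chmp3, 0.56 with Chmp5 and 0.33 with Vps4b. The oligodendrocyte list mean had r = 0.49, 0.36, 0.63, 0.67 and 0.15 in that order. The part of tissue makeup in these pairs was not tested. The r of Vps4a, Chmp3, Chmp5 and Chmp7 with Vps4b also depended on few arrays. Without poly(I:C) 1 and poly(I:C) 3 it was 0.38, 0.47, 0.33 and 0.30 in that order. Among controls it was 0.69, 0.63, 0.42 and 0.62, and among poly(I:C) animals -0.31, -0.022, -0.39 and -0.072. Chmp2b and Chmp1a formed a separate pair with r = 0.66 although their group differences had opposite signs.

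**Figure D4:**
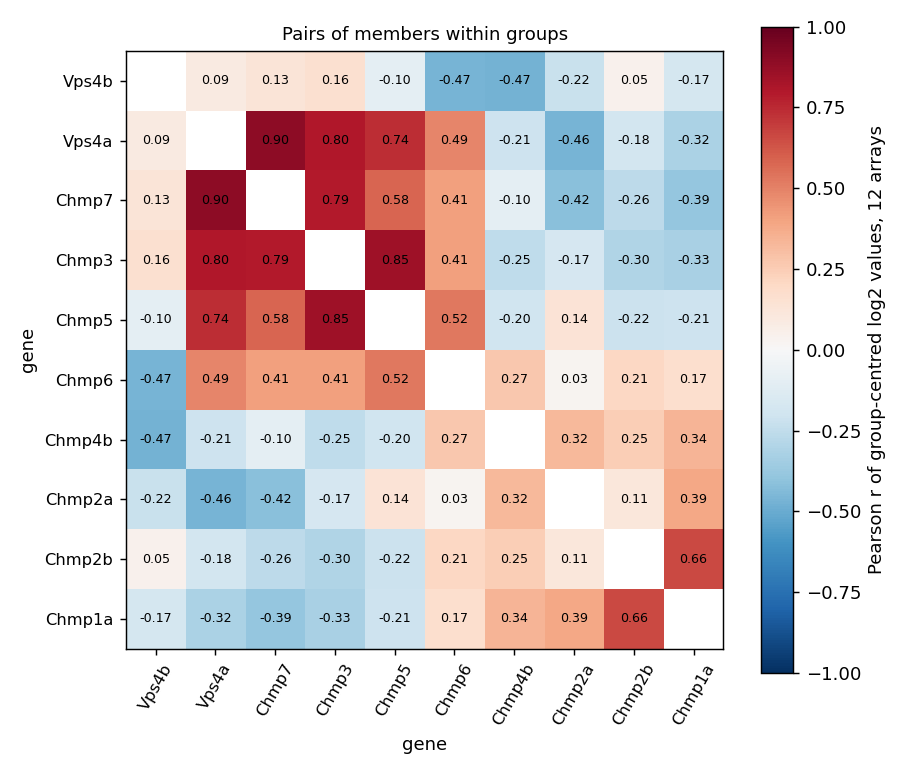
The grid shows Pearson's r for each of the 45 pairs of members over 12 arrays, computed on log2 values centred on their group means, from blue (-1) to red (1). The block of Vps4a, Chmp7, Chmp3 and Chmp5 reaches 0.90, and the row of Vps4b stays between -0.47 and 0.16.

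By likeness over all well detected genes, Vps4b ran closest within groups to Zfp809 (r = 0.90), Riok3 (0.88), Ehmt1 (0.88), Relch (0.88) and Zfp62 (0.87), and was most opposed to Eef1e1 (-0.82), Znhit2 (-0.82), Scarna17 (-0.81), Atpif1 (-0.79) and Dnajb2 (-0.79). They were chosen for their r over 12 arrays and get no test. An r above 0.7 or below -0.7 was found in 1.77% of rows, and without poly(I:C) 1 and poly(I:C) 3 the r of the 5 most alike ran from 0.57 to 0.83 and that of the 5 most opposed from -0.77 to -0.42 (Atpif1), with Eef1e1 at -0.47. None of these 10 genes passed the group comparison (limma adjusted p from 0.0924 to 0.742), and 0 belong to the ESCRT lists.

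No gene of the remaining ESCRT machinery or of a list for late endosomes and lysosomes passed the group comparison. Of the 36 measured genes of these lists together, 20 had a higher mean and 16 a lower one, 7 had an unadjusted p under 0.05 (14.4% of all rows did), and the median difference was 0.0086. The count of 7 was 4 without poly(I:C) 3 and 1 with the cortical, choroid plexus and septal list means in the fit. It was 9 without poly(I:C) 6 and 8 with array weights. ESCRT-0, which gathers ubiquitin-tagged cargo, had Stam2 at -0.035, Hgs at -0.025 and Stam at 0.013. ESCRT-I had 7 of 9 genes higher in value, with Ubap1 at 0.11, Vps37c at 0.072 and Vps37d at 0.044. ESCRT-II, which nucleates the filament through Chmp6, had Vps25 at 0.18 (95% interval 0.038 to 0.32, limma adjusted p = 0.248), Vps36 at 0.028 and Snf8 at -0.0095.

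Genes that act beside Vps4 and the other ESCRT-III genes had differences on both sides of 0, and none passed. The Vps4 activator Vta1 stood at 0.097 (95% interval 0.012 to 0.18, limma adjusted p = 0.289), Ist1, an ESCRT-III-like protein that binds Vps4, at 0.11 (0.019 to 0.19, adjusted p = 0.260), the microtubule-severing ATPase Spast, which is recruited by ESCRT-III, at 0.10, and the adaptor phosphatase Ptpn23 at 0.10. The remaining ESCRT-III genes, listed together with Ist1, were Chmp4c at -0.10 (95% interval -0.20 to -0.0063, limma adjusted p = 0.318) and Chmp1b at -0.033. Both had means under the median level of all rows, and the median difference of their list was -0.033. The list of associated proteins, from which Vta1, Spast and Ptpn23 come, had 6 of 10 measured genes with a difference above 0 and a median of 0.020.

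The late endosome and lysosome list held Cd63, Lamp1, Lamp2, Sdcbp, Tfeb, Mcoln1, Npc1 and Grn. It includes the regulator Tfeb, so not all of its genes encode membrane proteins. Differences were below 0 in 5 of these 8 genes, where 49.1% of all rows were. The list median was -0.064, and none passed. Cd63, a tetraspanin of the inner vesicles of late endosomes, ran from 6.06 to 6.72 in controls (median 6.15) and from 5.71 to 6.02 in poly(I:C) offspring (median 5.87), so that the groups did not overlap. Its log2 difference was -0.38 (95% interval -0.58 to -0.17, limma adjusted p = 0.134). Lamp1, a main protein of the lysosome membrane, ran from 9.087 to 9.24 and from 8.97 to 9.084, again without overlap, a difference of -0.13 (adjusted p = 0.155), and Npc1, the cholesterol exporter of lysosomes, stood at -0.12 (adjusted p = 0.360). Groups without overlap were thus found in 2 of the 8 genes, and in this direction in 0.523% of all rows. Within groups Cd63 and Lamp1 had r = 0.78 and 0.67 with the choroid plexus list mean, Lamp1 had 0.79 with the septal list mean, and Npc1 had 0.80 with the oligodendrocyte and 0.89 with the astrocyte list mean. The part of these cell types and tissues in the differences was not tested.

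**Figure D5:**
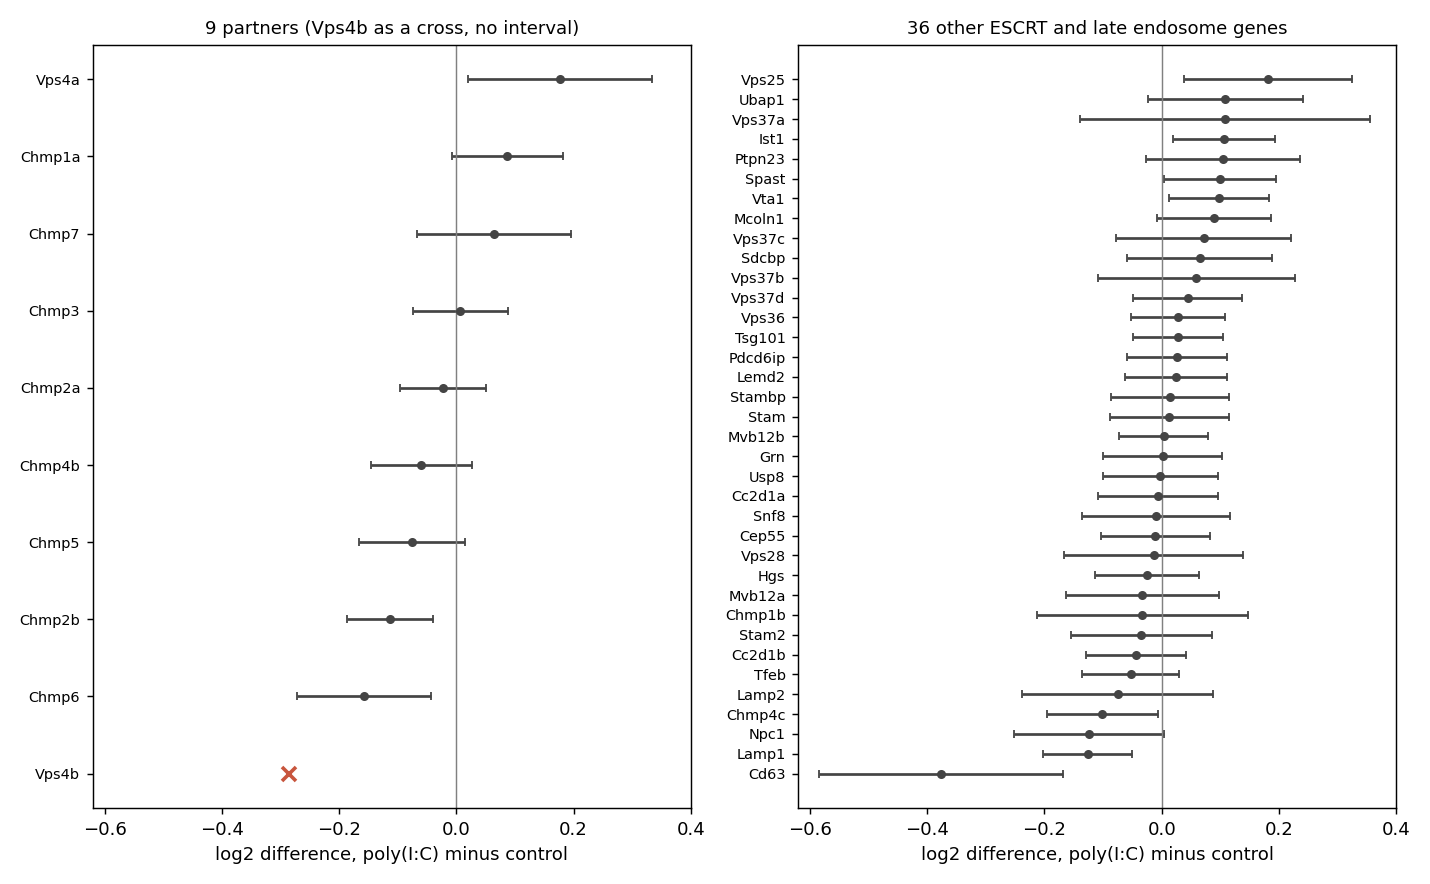
The left panel plots the log2 difference, poly(I:C) minus control, for the 9 partners with 95% limma intervals and for Vps4b as a cross without an interval, and the right panel plots the 36 other ESCRT and late endosome genes in the same way. No gene with an interval passed the adjusted threshold, and the values run from -0.38 (Cd63) to 0.18 (Vps25).

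Several lists of marker genes for cell types and other tissue differed in mean between the groups, most with overlapping ranges. The medium spiny neuron genes were well above the median level of 5.47, with Drd1 at 8.45 and Drd2 at 8.73 in controls. The mean over 6 such genes was 9.12 ± 0.20 for control and 9.15 ± 0.16 for exposed animals (SD, n = 6). Of 7 oligodendrocyte genes 7 were lower in value, where 49.1% of all rows were, and 1 of them, the myelin gene Mobp, passed in that direction, where 0.033% of all rows did, with a difference of -0.51 (limma adjusted p = 0.0411). The list mean ran from 8.08 to 8.62 in controls and from 7.90 to 8.04 in poly(I:C) offspring. All 5 cortical neuron genes were higher in value (list mean 5.07 to 6.54 against 5.78 to 6.96), led by Slc17a7 at 1.51, and all 6 choroid plexus genes were lower (4.93 to 7.17 against 4.72 to 5.11), led by Ttr at -2.82. Within groups the level of Vps4b had r = 0.15 with the oligodendrocyte mean, -0.13 with the cortical mean and -0.042 with the choroid plexus mean. With the other list means r was 0.33 (astrocyte), 0.24 (microglia), 0.20 (medium spiny neuron) and -0.10 (septal). The Vps4b difference of -0.29 was -0.25 with the oligodendrocyte mean as a covariate, -0.27 with the means of cortical, choroid plexus and septal genes all in the fit, and -0.30 without controls 4 and 6, which had the highest choroid plexus means. The oligodendrocyte means of the groups did not overlap, so the fit with that covariate extrapolates. The part of tissue makeup in the Vps4b difference was not tested.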

How the data were processed

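Total RNA of 12 accumbens samples was hybridised to Affymetrix Mouse Gene ST array strips. The authors deposited 1 table of 35556 rows of log2 values, made with RMA and Partek 6.6 per the submitters' processing notes; no source used here gives the settings or the build. Array medians ran from 4.78 to 4.85. Because RMA pulls arrays to 1 distribution, a shift shared by most transcripts would not show, and the number of arrays limits the precision.

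Groups came from the sample titles. The 21218 rows annotated with 1 gene symbol were fitted with limma 3.58.1 in R 4.3.3 (lmFit and eBayes, exposure group as the term), with two-sided tests and Benjamini-Hochberg adjustment over all rows; no row was filtered. A further fit added the group-centred Vps4b level and tested its slope on 21217 rows. Both fits were tested on simulated data. Genes named outside the members are up to 3 per pathway list with the smallest unadjusted p, the 5 most and 5 least like Vps4b, and 5 tissue markers. The likeness rule took rows at or above the median level and left out gene models and chemosensory receptors. Small RNA genes were left out only by names starting with Snor, Mir or n-R, so the small RNA gene Scarna17 stayed in. The members and lists were chosen with earlier results of these data known. Replicate numbers recur in both groups, but the labels do not say that they mark shared litters. Mitd1 was measured only on a row with several genes and is not reported here.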

Additional observations from a re-analysis of the deposited data

How the results depend on the processing

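Across 23 alternative settings (other scalings, filters, tissue covariates, the replicate block and each array left out) 0 of 9 partners and 0 of the 36 other pathway genes (33 of them with the filter on low rows) passed the group comparison, and 0 partners passed the slope on Vps4b. Leaving out 1 array at a time gave 0 in each of these counts. The difference of Vps4b, which the row filters, the other eBayes settings and the replicate block cannot alter, was below 0 in the others too, from -0.33 to -0.26 with 1 array left out; it was -0.14 on the other row of the gene. Among the 6 differences whose intervals included 0, those of Chmp1a, Chmp3, Chmp5 and Chmp7 changed sign. Chmp3 was -0.018 with quantile normalization again, -0.012 with array weights, -0.0051 with tissue covariates, -0.0040 without controls 4 and 6, -0.047 on its other row, and from -0.011 to 0.026 with 1 array left out. Chmp7 was -0.015 with tissue covariates, and with the oligodendrocyte mean as a covariate Chmp1a was -0.0095 and Chmp5 0.040. Slopes on Vps4b that changed sign were Vps4a (-0.21 with quantile normalization, -0.0098 with array weights, -0.24 on the other rows, -0.0062 to 0.49 with 1 array left out), Chmp1a (0.17 with the replicate block, 0.49 on the other rows, -0.46 to 0.016), Chmp2b (-0.30 to 0.18), Chmp3 (-0.058 with quantile normalization, -0.81 on the other rows), Chmp5 (0.089 with median centring, -0.14 to 0.097) and Chmp7 (-0.19 with quantile normalization, -0.16 on the other rows). Without a change of sign, Chmp2a was -0.0092 with median centring, -0.043 with quantile normalization and -0.0069 with array weights, Chmp4b was -0.037 with array weights, Chmp1a was 0.055 with tissue covariates, and Chmp7 was 0.17 with the oligodendrocyte mean as a covariate. The cause of these changes was not tested.

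Same-numbered arrays of the 2 groups had correlations of their deviations from -0.20 to 0.27, and 2 of 12 arrays correlated best with their own number, so the numbers were not taken as pairs. With the replicate block 0 partners passed; the Vps4b difference was -0.29, as the balanced design fixes it.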
